A study of Mus musculus with 2 samples.

Results

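The genes described here are 6 members of the angiopoietin and TIE2 signaling system, taken by symbol from the 32285 genes of both count matrices: the secreted ligands Angpt1 and Angpt2, the extracellular matrix protein gene Svep1, the receptor genes Tek (which encodes TIE2) and Tie1, and the phosphatase gene Ptprb. Single-cell transcriptomes were made from the anterior eye segment, freed of the iris, of mice of mixed strain in 2 conditions. The Foxc2fl/fl control library carried the floxed Foxc2 alleles without Cre, and the NC-Foxc2-/- library carried the same alleles with the Wnt1-Cre driver, which removes Foxc2 from neural crest derived cells. The sample labels give an age of 4 weeks and the protocol 3 to 4 weeks. Each library pooled the eyes of 4 to 6 mice, and the mutant mice were picked by the authors for a moderate eye phenotype. With 1 library per genotype there was no replicate, so no test between genotypes was possible, and every interval given is an exact 95% interval for counting error only. A change was called higher or lower where the level in CPM (the unique molecular identifiers or UMIs of a gene per 1000000 UMIs of a cell class) differed by at least 2 times or at most 0.5 times with at least 50 UMIs over both libraries.

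TIE2 is a receptor tyrosine kinase of endothelial cells. ANGPT1 activates it from neighbouring cells, ANGPT2 acts as an agonist or antagonist depending on context, TIE1 is a coreceptor without a strong ligand of its own, and the phosphatase encoded by Ptprb (VE-PTP) removes phosphate from TIE2. In the eye this pathway is needed to form and keep Schlemm's canal, the endothelial channel that drains aqueous humor next to the trabecular meshwork, and SVEP1 is a large matrix protein known to bind TIE1 and to act in lymphatic and canal development.

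In GRCm38, per the GENCODE annotation, Angpt1 (ENSMUSG00000022309) lies at chr15:42424723-42676977 on the minus strand and Angpt2 (ENSMUSG00000031465) at chr8:18690263-18741562 on the minus strand. Tek (ENSMUSG00000006386) lies at chr4:94739289-94874976 on the plus strand, Tie1 (ENSMUSG00000033191) at chr4:118471191-118490061 on the minus strand and Svep1 (ENSMUSG00000028369) at chr4:58042442-58206859 on the minus strand. Ptprb (ENSMUSG00000020154) lies at chr10:116275523-116389535 on the plus strand. None of the 6 shares an exon with another gene on the same strand. The RefSeq promoter table of GRCm38.p6 held 3 of the 6 genes. The 250 bases before the Tek start site, chr4:94739039-94739288 on the plus strand, are shown because Tek was the receptor gene found both in endothelial cells and in a stromal class, and because the gene deleted in the mutant encodes a forkhead factor. Capitals mark the forkhead core AAACA and the ETS core GGAA, which reads TTCC on this strand.
Tek promoter: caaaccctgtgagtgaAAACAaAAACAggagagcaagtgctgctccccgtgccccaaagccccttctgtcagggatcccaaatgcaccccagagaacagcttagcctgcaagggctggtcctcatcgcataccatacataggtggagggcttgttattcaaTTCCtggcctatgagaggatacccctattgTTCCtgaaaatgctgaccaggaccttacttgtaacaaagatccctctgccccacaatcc
AAACA was found 2 times, the first match starting at -234 from the start site, and GGAA 2 times, the first at -89, both motifs being searched on both strands. The longer forkhead motif GTAAACA had 0 matches. Of 32841 promoters of this length, 46.4% held AAACA, 93.5% held GGAA and 3.17% held GTAAACA, so the shorter matches are common letters in promoters.

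The control library kept 10773 cells and 119599692 UMIs, with a median of 7663 UMIs per cell, and the NC-Foxc2-/- library kept 10872 cells and 94644512 UMIs, with a median of 6517, so levels in the mutant library rest on fewer UMIs per cell. The 2 libraries shared 52 cell barcodes. The study's cluster names were recovered for 460 of 462 endothelial cells (ECs) and for 6561 of 6568 meshwork cells and fibroblasts: the blood EC clusters BEC-1 to BEC-6, the NC-Foxc2-/- ECs, the SC and lymphatic ECs (SC, Schlemm's canal), the meshwork clusters TM-1, TM-2, TM-3 and Uveal, and the Fibroblasts. The remaining cells were clustered again and named after marker lists, and carry the ending "-like". Foxc2, the deleted gene, was at 46.7 CPM in control fibroblasts and 0.670 CPM in those of the mutant. It was at 132 and 2.49 CPM in pericyte-like cells and at 27.0 and 5.10 CPM in TM-3. Keratocyte-like cells went the other way, with 121 and 389 Foxc2 UMIs, or 4.38 and 9.82 CPM. That ratio of 2.24 (1.82 to 2.77) was called higher, where 3.60% of all genes were called, and its cause was not tested. In the endothelial cells Foxc2 was at 25.2 CPM in control and 4.64 CPM in the mutant library, from 56 and 8 UMIs. The SC and lymphatic ECs held 36 and 3 of these, a ratio of 0.377 (0.0743 to 1.19). BEC-1 to BEC-6 held 20 and 5, a ratio of 0.245 (0.0718 to 0.672). The mix of endothelial clusters differed between the libraries, and its part in the lower level was not tested. The paper reports no Wnt1-Cre reporter signal in Schlemm's canal endothelium.

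Angpt1, the activating ligand, was a gene of the trabecular meshwork. The meshwork clusters together held 70.2% of its 1738 UMIs in the control library and 64.5% of its 2158 UMIs in the NC-Foxc2-/- library. The highest level was in TM-1, with 115 CPM (104 to 126) in control and 139.5 CPM (126 to 154) in the mutant. TM-2 had 92.9 CPM (74.7 to 114) and 138 CPM (118 to 161), and over both libraries the levels of TM-1 and TM-2, 125.5 and 117.7 CPM, had counting intervals that were not apart. Uveal cells followed with 59.2 CPM (53.1 to 65.7) and 91.8 CPM (82.0 to 102), then TM-3 with 56.6 CPM (50.8 to 62.8) and 69.1 CPM (63.3 to 75.4). Smooth muscle-like cells had 40.3 and 35.7 CPM, and pericyte-like cells, the mural cells around small vessels, had 32.2 CPM (24.0 to 42.2) and 21.97 CPM (16.5 to 28.7). Meshwork cells thus stood above both mural classes in each library. Endothelial cells had 7 Angpt1 UMIs in control (3.15 CPM) and 3 in the mutant library (1.74 CPM).

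In TM-1 an Angpt1 UMI was found in 43.5% of the 609 control cells and 40.7% of the 499 mutant cells (median depths 5602 and 5241 UMIs), against 0.186% of the 1073 control and 0% of the 363 mutant corneal epithelial-like cells, a class that should lack the gene and was read deeper (medians 18733 and 18806 UMIs). The 0 of 363 allows a share of up to 0.826%. With each cell thinned to 2000 UMIs the TM-1 shares were 17.9% and 20.9%, and 0 of 1036 and 0 of 323 corneal epithelial-like cells held one, which allows shares of up to 0.290% and 0.929%.

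**Figure D1:**
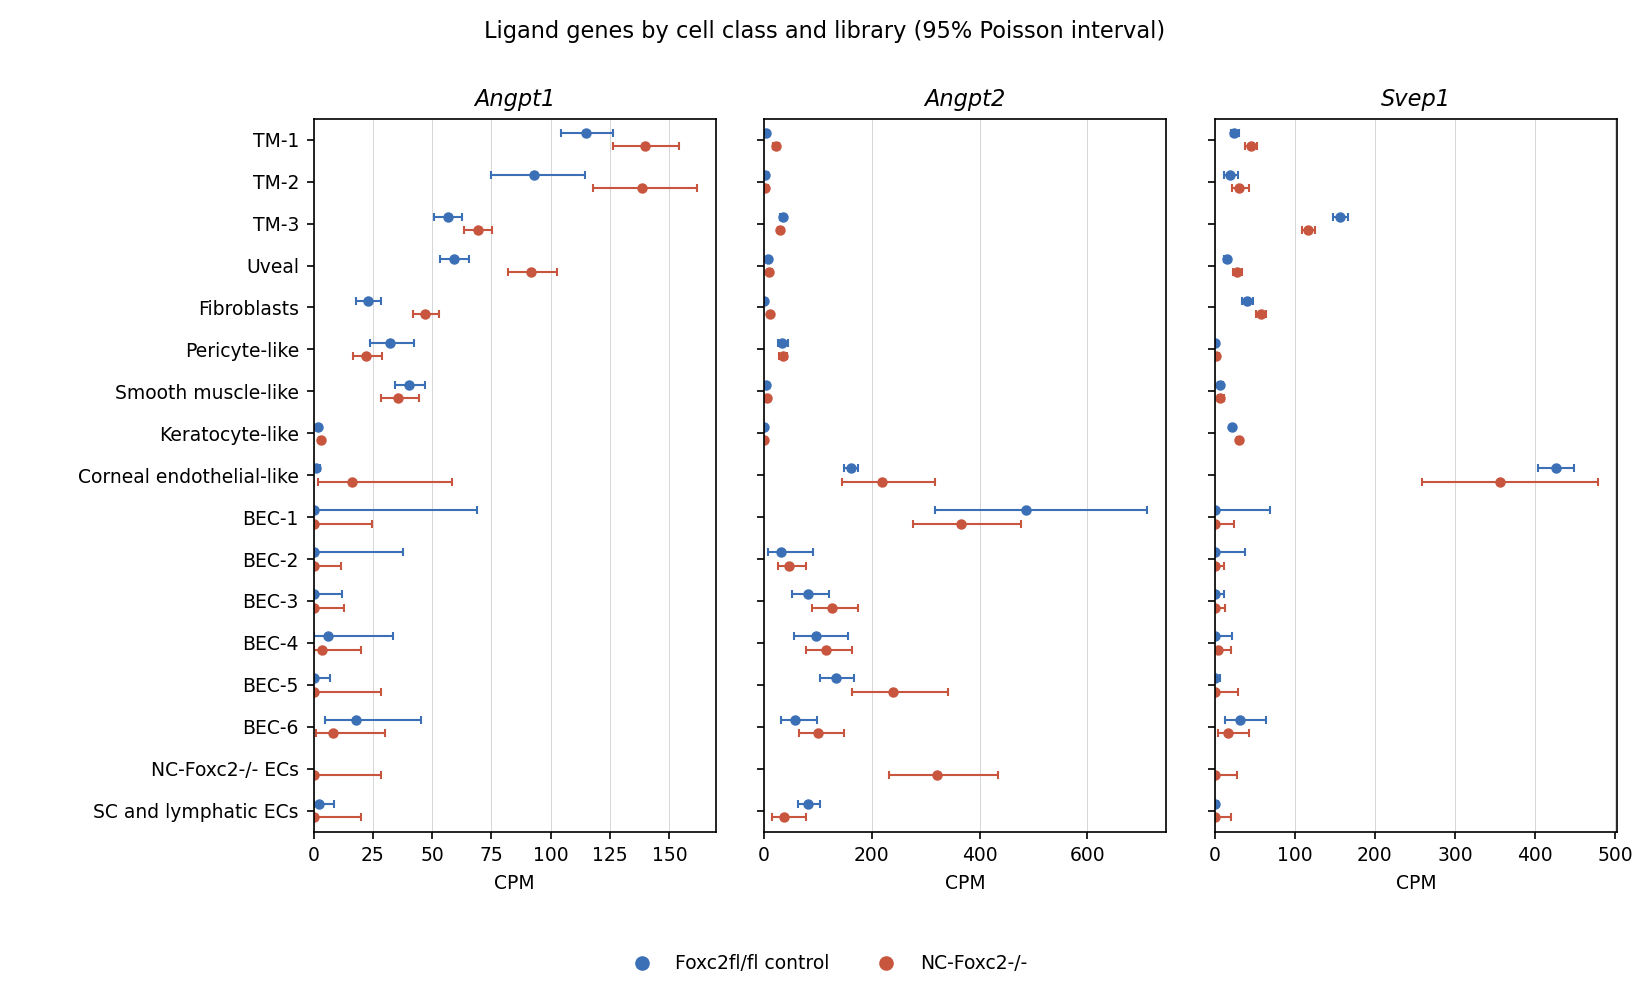
Level of the ligand genes Angpt1, Angpt2 and Svep1 (CPM, linear axis) by cell class, 1 point per library with exact 95% counting intervals; each point is 1 pooled library. Angpt1 is highest in TM-1 and TM-2, Angpt2 in BEC-1 and the NC-Foxc2-/- ECs, and Svep1 in corneal endothelial-like cells (426 CPM in control) and TM-3.

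Between the libraries, TM-1 had an Angpt1 ratio of NC-Foxc2-/- over control of 1.22 (1.06 to 1.40). TM-2 had 1.49 (1.14 to 1.95), TM-3 had 1.22 (1.07 to 1.40) and Uveal cells had 1.55 (1.33 to 1.81). None of these reached the 2 times that made a call. In smooth muscle-like cells the ratio was 0.887 (0.671 to 1.17) and in pericyte-like cells 0.683 (0.457 to 1.02), both intervals including 1. Only in the fibroblasts, among the classes tested, was Angpt1 called higher: 76 UMIs or 22.9 CPM (18.03 to 28.6) in control and 281 UMIs or 47.1 CPM (41.8 to 52.9) in NC-Foxc2-/-, a ratio of 2.06 (1.59 to 2.69). This call was a close one: the ratio was 1.98 as a mean of per-cell CPM, 1.84 with the cluster names joined more strictly and 1.58 with cells thinned to 2000 UMIs, all short of 2 times. Of the 6 members 4 had enough UMIs in fibroblasts, and 2 of these, Angpt1 and Angpt2, were called higher and 0 lower. Of all genes with enough UMIs there, 10.9% were called in either direction and 4.84% higher.

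The fibroblasts were made of a larger group led by Clec3b, Pi16 and C3, markers of adventitial fibroblasts, and a smaller group led by Igfbp6, Cilp2 and Cilp. The first held 386 of the 433 control and 742 of the 962 mutant fibroblasts, and the second 43 and 212, so the mutant library held relatively more of the second. In the Clec3b group Angpt1 was at 23.0 CPM in control and 54.0 CPM in the mutant, a ratio of 2.35 (1.80 to 3.11). The Igfbp6 group had 14.6 and 15.6 CPM from 4 and 18 UMIs, a ratio of 1.07 (0.352 to 4.34). That interval includes the ratio of the Clec3b group, so these counts do not tell the 2 groups apart. The higher level was found in the Clec3b group, which makes up most of the class in both libraries. A comparable split of the Uveal cells gave a cluster led by Col10a1, Edn3 and Ccl11 with 34.5 CPM of Angpt1 in control and 111 CPM in the mutant, a ratio of 3.23 (2.18 to 4.84), while the larger Uveal cluster led by Lypd1, Gpr165 and Sostdc1 had a ratio of 1.39 (1.16 to 1.66). These groups within clusters were rebuilt here, and their difference was not tested.

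Angpt2, the ligand released by activated vessels and made also by stromal cells, was highest in endothelial and corneal endothelial-like cells, followed by TM-3 and pericyte-like cells. In the control library the corneal endothelial-like cells, which line the back of the cornea and are not vascular, held 43.7% of its 1233 UMIs. They had 161 CPM (147 to 175) in 170 control cells and 219 CPM (144 to 318) in the 9 cells of the mutant library. Endothelial cells held 18.005% of the control and 28.8% of the mutant UMIs of Angpt2, of 845 in all in the latter. Because the corneal endothelial-like cells were nearly missing from the mutant library, levels over all cells mix this loss with levels per class, and only the class levels are compared below.

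Among the endothelial clusters BEC-1 was highest for Angpt2, with 485 CPM (317 to 711) in 8 control cells and 366 CPM (276 to 476) in 25 mutant cells. The 26 control UMIs of BEC-1 came from 3 cells, 12 of them from 1. The NC-Foxc2-/- ECs, a cluster present in the mutant library alone, had 42 UMIs or 322 CPM (232 to 435) in 22 cells, and 21 of these UMIs came from 1 cell. BEC-5 had 133 CPM (104 to 168) and 240.2 CPM (163 to 341), the latter from 31 UMIs in 4 of 14 cells, 15 of them in 1. These clusters stood above BEC-2, where Angpt2 was at 30.8 and 46.9 CPM. BEC-3 had 81.5 and 127 CPM, BEC-4 95.7 and 115 CPM, and BEC-6 57.6 and 100.3 CPM. In BEC-4 16 of the 32 mutant UMIs came from 1 cell. Over both libraries the intervals of BEC-1 and the NC-Foxc2-/- ECs were not apart, nor were BEC-4 and BEC-3, or BEC-3 and BEC-6. BEC-5 and BEC-4 were just apart, with a ratio of 1.43 (1.003 to 2.06). For all endothelial cells together the control level was 100.03 CPM (87.3 to 114) and the mutant level 141 CPM (124 to 160), a ratio of 1.41 (1.17 to 1.70). In these cells 4 members had enough UMIs and 0 were called, against 7.12% of all genes. In control 47 of the 222 endothelial Angpt2 UMIs came from 1 cell, described next.

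In the SC and lymphatic ECs Angpt2 was called lower, with 69 UMIs or 82.0 CPM (63.8 to 104) in control and 7 UMIs or 37.7 CPM (15.1 to 77.6) in the mutant, a ratio of 0.459 (0.178 to 0.998), as 1 of 4 members with enough UMIs there, against a background of 9.65% of genes called in either direction and 5.21% called lower. That call rested on few cells. Of the 84 control cells of this cluster, 4 held a UMI of Lyve1, a marker of lymphatic vessels that is low in Schlemm's canal, and these 4 cells held 54 of the 69 Angpt2 UMIs, 47 of them in 1 cell. The 80 control cells without a Lyve1 UMI had 15 Angpt2 UMIs or 19.5 CPM (10.9 to 32.1), and the 22 such mutant cells had 7 UMIs or 38.7 CPM (15.6 to 79.8). Without the Lyve1 cells the ratio turned to 1.99 (0.686 to 5.18), and its interval included 1. The 4 control cells also had 19793 CPM of the lymphatic chemokine gene Ccl21a, against 6135 CPM in the 80 others. No direction of Angpt2 in the SC and lymphatic ECs can be read from these libraries.

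Angpt2 was also higher in the NC-Foxc2-/- library in 2 stromal classes where the control level was low. In TM-1 it had 16 UMIs in control, 4.32 CPM (2.47 to 7.02) with 2.30% of cells, and 61 UMIs in the mutant, 21.4 CPM (16.4 to 27.5) with 7.82% of cells, a ratio of 4.95 (2.82 to 9.20) as 1 of 3 members with enough UMIs, where 3.94% of all genes were called and 2.24% were called higher. In fibroblasts it had 1 UMI in control (0.301 CPM, 0.00762 to 1.68), in 1 of 433 cells, and 68 UMIs in the mutant (11.4 CPM, 8.85 to 14.4), in 53 of 962 cells or 5.51%. The ratio of 37.9 had a counting interval of 6.57 to 1517, so its size is poorly fixed. The mutant UMIs were spread over cells, with at most 4 in 1 fibroblast and 5 in 1 TM-1 cell. For comparison, corneal epithelial-like cells had an Angpt2 UMI in 2.61% of control and 3.86% of mutant cells (medians 18733 and 18806 UMIs), and thinned to 2000 UMIs in 0.290% and 1.24%. The thinned shares were 0.992% and 2.23% in TM-1 and 0.235% and 2.76% in fibroblasts. By point value the control fibroblasts lay below the background share of their library and the other thinned shares above it. Few cells lay behind these shares, with 1 Angpt2 UMI in the control fibroblasts and 4 of 323 epithelial cells in the mutant background. The order of the thinned shares was not tested. In CPM, which does not depend on depth per cell, corneal epithelial-like cells had 1.46 and 2.85.

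Both groups of the fibroblasts and of TM-1 showed the mutant UMIs of Angpt2. The Clec3b fibroblasts had 1 UMI in control and 47 in the mutant (0.333 and 9.92 CPM), and the Igfbp6 fibroblasts had 0 of their UMIs in control and 19 in the mutant (16.5 CPM), at least 1.504 times higher than a floor of 3 control UMIs. In TM-1 the cells of the Col10a1, Edn3 and Ccl11 cluster, which were 560 of 609 control and 400 of 499 mutant cells, had 4.68 and 14.0 CPM, a ratio of 2.98 (1.60 to 5.80). The TM-1 cells of the Igfbp6 cluster had 0 UMIs in 42 control cells and 27 UMIs or 58.6 CPM in 92 mutant cells, at least 4.66 times higher than the same floor. TM-3 cells of that Igfbp6 cluster likewise had 4.62 CPM in control and 21.9 CPM in the mutant, a ratio of 4.75 (1.76 to 18.01). The main TM-3 cells, led by Myoc, Ecrg4 and Csf3, moved little, with 40.0 and 35.5 CPM, and TM-3 as a whole had 34.7 CPM (30.2 to 39.6) and 29.5 CPM (25.8 to 33.7), a ratio of 0.852 (0.703 to 1.03). In TM-3 5.93% of all genes were called.

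**Figure D2:**
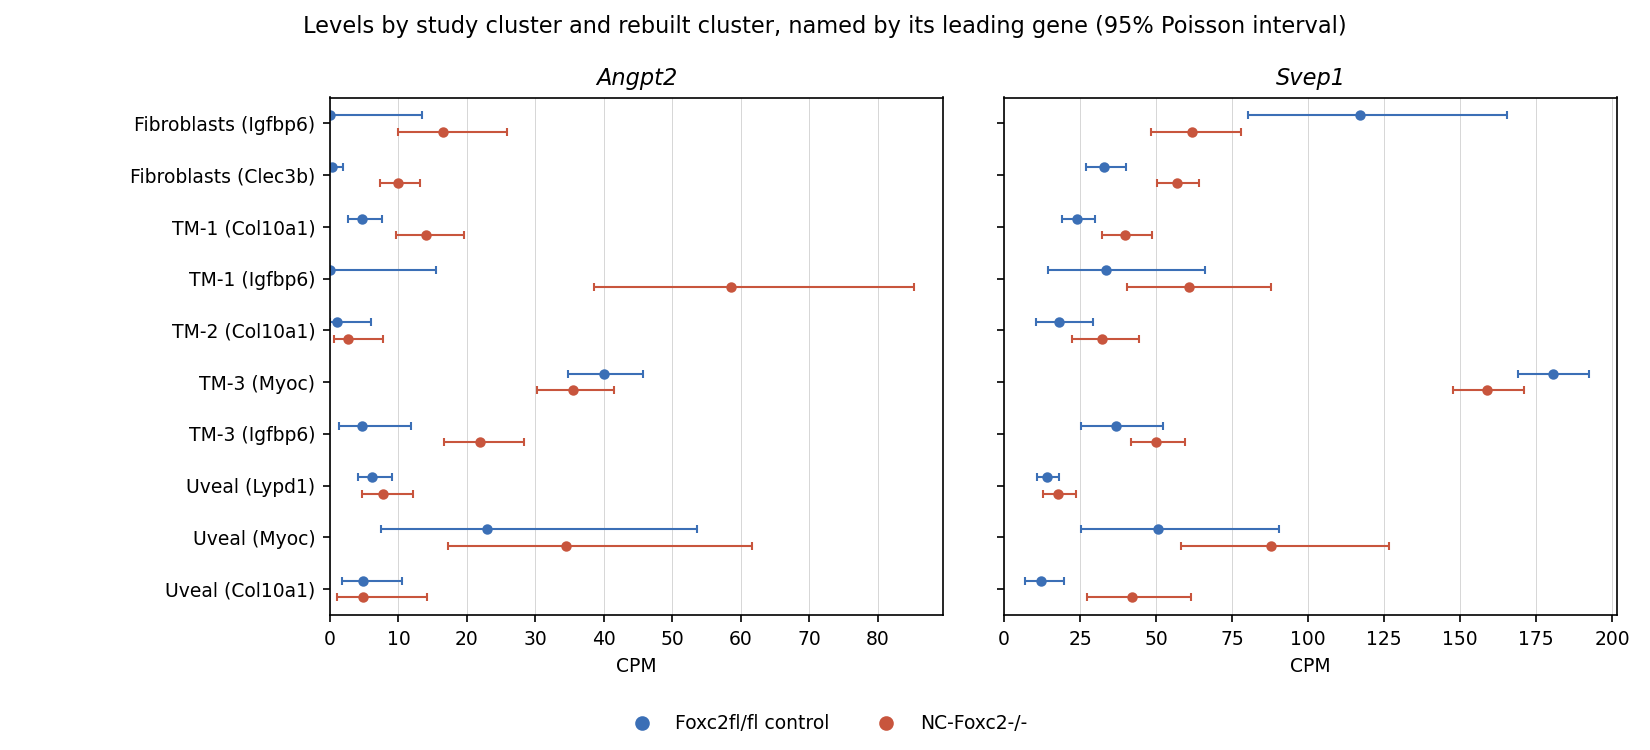
Angpt2 and Svep1 levels (CPM, linear axis) in the rebuilt clusters, named by their leading gene, within the fibroblasts, TM-1, TM-2, TM-3 and Uveal cells, 1 point per library with exact 95% counting intervals. In the Igfbp6 cluster Angpt2 is at 0 CPM in control fibroblasts and TM-1 cells and at 16.5 and 58.6 CPM in the mutant library, and in the Myoc cells of TM-3 it stays between 35.5 and 40.0 CPM.

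Endothelial transcripts were looked for in the Angpt2 cells of these classes. Of the 53 mutant fibroblasts with an Angpt2 UMI, 8 (15.1%, 6.75 to 27.6%) also held a UMI of Pecam1, Cdh5, Tie1 or Ptprb, against 48 of 909 (5.28%, 3.92 to 6.94%) without one, and 0 of the 53 were called doublets, which allows a share of up to 5.66%. In TM-1 of the mutant library the share was 4 of 39 (10.3%) with and 63 of 460 (13.7%) without an Angpt2 UMI. The 7 endothelial markers summed to 66.2 CPM in control and 53.0 CPM in mutant fibroblasts, of which Plvap alone made 55.7 and 32.5 CPM. They summed to 191 and 178 CPM in TM-1, of which Emcn made 161 and 139 CPM, and to between 4105 and 15230 CPM in the endothelial clusters. Of these markers Pecam1, Cdh5, Egfl7, Cldn5 and Emcn were higher in mutant fibroblasts, and Plvap and Esam lower. In TM-1 Cdh5 was called higher, with 28 and 49 UMIs (7.56 and 17.2 CPM), where 2.24% of all genes were called higher. Plvap and Egfl7 were also higher there by point value, and Emcn, Cldn5, Pecam1 and Esam lower. The part of free or carried-over endothelial RNA in the Angpt2 counts of fibroblasts and TM-1 was not tested beyond these values.

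In pericyte-like cells the Angpt2 levels of the libraries differed by less than counting error, 34.0 CPM (55 UMIs) in control and 34.4 CPM (83 UMIs) in the mutant, with a ratio of 1.01 (0.711 to 1.45). Set against Angpt1 in the same cells, as Angpt2 UMIs per Angpt1 UMI, the balance was 1.06 (0.711 to 1.58) in control and 1.57 (1.10 to 2.25) in mutant pericyte-like cells. It was 0.0376 (0.0213 to 0.0619) and 0.153 (0.115 to 0.201) in TM-1, and 0.0132 and 0.242 in fibroblasts. TM-3 went the other way, from 0.613 (0.515 to 0.728) to 0.427 (0.363 to 0.501), and over the meshwork clusters together the balance was 0.225 in control and 0.229 in the mutant. Capture can differ between genes, so such a ratio compares libraries or classes and not the abundance of the 2 transcripts.

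Svep1 had its highest level in corneal endothelial-like cells, with 1427 UMIs or 426 CPM (404 to 448) in 97.6% of the 170 control cells and 44 UMIs or 356 CPM (259 to 478) in the 9 mutant cells. TM-3 followed with 981 UMIs or 157 CPM (147 to 167) in control and 869 UMIs or 117 CPM (109 to 125) in the mutant. The order then ran through fibroblasts, TM-1 and keratocyte-like cells, with 51.4, 33.4 and 26.5 CPM over both libraries, and TM-2 and BEC-6, at 25.3 and 23.7 CPM, were not apart from their neighbours. Svep1 was nearly absent from vascular endothelium: endothelial cells had 7 UMIs in control and 5 in the mutant library, of which BEC-6 held 7 and 4. In BEC-6 6 of the 7 control UMIs and 3 of the 4 mutant UMIs came from 1 cell each. BEC-6 also had 1880 and 2449 CPM of the summed keratocyte markers and 1920 and 1617 CPM of the pericyte markers, against at most 452 and 556 CPM in the other BEC clusters, and their part in this level was not tested. The SC and lymphatic ECs had 0 UMIs of Svep1 in both libraries, which allows up to 3.56 CPM in control and 16.1 CPM in the mutant.

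The Svep1 level differed between the libraries in unlike directions across classes, with no call in the main analysis. TM-3 had a ratio of 0.744 (0.678 to 0.816), whereas TM-1 had 1.83 (1.38 to 2.42), Uveal cells 1.91 (1.42 to 2.58), fibroblasts 1.43 (1.16 to 1.75) and keratocyte-like cells 1.36 (1.23 to 1.5002). The sizes depended on the processing. The Uveal ratio was 1.23 (0.7002 to 2.14) with cells thinned to 2000 UMIs, but 2.04 without called doublets and 2.03 with the 5% mitochondrial filter, both of which would be calls. Likewise TM-1 reached 2.23 when thinned, and TM-2, at 1.66 in the main analysis, 2.31 as a mean of per-cell CPM. In Uveal cells 3.54% of all genes were called. The TM-3 cells of the mutant library held more of the Igfbp6 cluster, 506 of 1142 cells against 158 of 852 in control, and this cluster had less Svep1 than the Myoc cells, at 36.9 CPM in control and 49.98 CPM in the mutant against 180.4 and 159 CPM. Within the Myoc cells the ratio was 0.881 (0.798 to 0.972), and with both libraries weighted to the control mix of these clusters it was 0.896. Over the meshwork clusters together the level was 69.9 and 75.8 CPM, a ratio of 1.08 (0.999 to 1.18), where 4.41% of genes were called. In keratocyte-like, smooth muscle-like, pericyte-like and corneal endothelial-like cells 3, 1, 2 and 2 members had enough UMIs, and 0 were called. The shares of all genes called there were 3.60%, 3.69%, 9.64% and 27.6%. With so few members, 0 calls does not set them apart from these shares.

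Tek, the TIE2 receptor gene, was at 184 CPM (167 to 203) in the endothelial cells of the control library and 176 CPM (157 to 197) in those of the NC-Foxc2-/- library, a ratio of 0.954 (0.819 to 1.11). The SC and lymphatic ECs were 84 of the 207 control and 23 of the 253 mutant endothelial cells, and with both libraries weighted to the control mix of clusters the ratio turned to 1.19. The blood clusters were unlike each other. BEC-2, with 287 and 263 CPM, and BEC-3, with 277 and 226 CPM, were highest and not apart from each other over both libraries, and BEC-1, with 74.7 and 99.8 CPM, and BEC-6, with 93.1 and 100.3 CPM, were lowest among those present in both. BEC-5 lay between, at 182 and 194 CPM. The NC-Foxc2-/- ECs had 5 Tek UMIs or 38.3 CPM (12.4 to 89.4). In BEC-4 the level was 197 CPM (136 to 277) in 15 control cells and 108 CPM (72.8 to 154) in 51 mutant cells. The ratio of 0.546 (0.322 to 0.924) did not reach the call, and the median gene there had a ratio of 1.09. Of the 33 control Tek UMIs of BEC-4, 15 came from 1 cell, while no mutant cell held more than 4 of the 30.

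In the SC and lymphatic ECs Tek was at 169 CPM (142 to 199) in control, with a UMI in 66.7% of 84 cells, and at 290.5 CPM (218 to 379) in the mutant library, with a UMI in 73.9% of 23 cells. The ratio was 1.72 (1.23 to 2.37), under the 2 times of a call. Without the cells that held a Lyve1 UMI the levels were 177 and 299 CPM and the ratio 1.69 (1.21 to 2.34), so the difference did not rest on them. Thinning each cell to 2000 UMIs left 26 and 6 Tek UMIs and a ratio of 0.901 (0.303 to 2.24), and the shares of cells with a UMI were then 29.3% and 23.8%. The higher Tek level of the mutant canal cluster was therefore not detectable at that depth. The control cluster held 841710 UMIs and the mutant cluster 185889, and the median depths of their cells were 6166 and 6151 UMIs. Prox1, which marks canal and lymphatic endothelium, was at 245 and 285 CPM in this cluster.

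**Figure D3:**
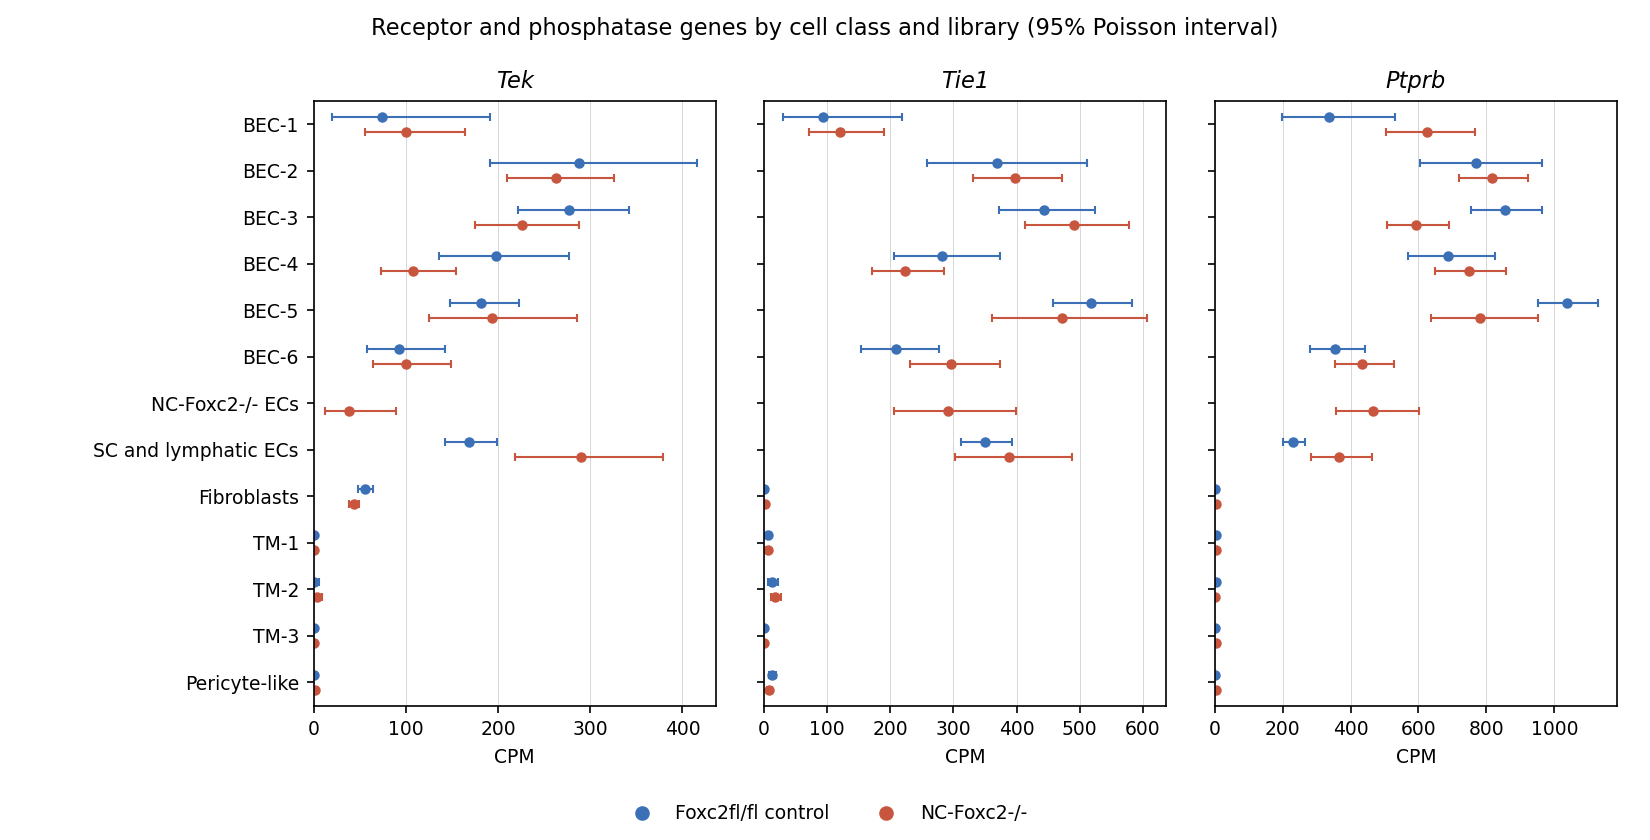
Level of Tek, Tie1 and Ptprb (CPM, linear axis) by cell class, 1 point per library with exact 95% counting intervals. All 3 genes are highest in endothelial clusters, and in fibroblasts Tek stands clear of 0, at 55.7 CPM in the control library and 43.4 CPM in the mutant.

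Tek was not confined to endothelium. Fibroblasts had 185 Tek UMIs or 55.7 CPM (48.0 to 64.3) in control, in 115 of 433 cells (26.6%), and 259 UMIs or 43.4 CPM (38.3 to 49.0) in the mutant library, in 178 of 962 cells (18.5%), a ratio of 0.779 (0.643 to 0.946). They held 28.2% of all Tek UMIs in control and 40.2% in the mutant, against 62.3% and 47.0% in endothelial cells. Meshwork cells, by contrast, had 6 and 12 Tek UMIs (0.356 and 0.804 CPM) and corneal epithelial-like cells 1 and 0. The signal lay in the Clec3b, Pi16 and C3 group, which held 184 of the 185 control UMIs (61.3 CPM) and had 53.0 CPM in the mutant library, while the Igfbp6 group had 0 and 7 UMIs.

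Tie1, Ptprb and the junction genes Pecam1 and Cdh5 were far lower than Tek in these cells. Tie1 was at 0.301 and 1.01 CPM in fibroblasts, Ptprb at 0.903 and 3.86 CPM, Pecam1 at 2.11 and 3.69 CPM and Cdh5 at 1.204 and 3.18 CPM. A UMI of Pecam1, Cdh5, Tie1 or Ptprb was found in 3 of 115 control fibroblasts with Tek (2.61%) and in 11 of 318 without (3.46%), and in 3 of 178 (1.69%) and 53 of 784 (6.76%) in the mutant library. Doublets were called in 0 and 1 of the fibroblasts with Tek. Pi16, a marker of adventitial fibroblasts, was found in 97.4% of control fibroblasts with Tek and 68.2% of those without, and in 89.9% and 67.0% in the mutant library. The cells with Tek were read deeper (median 8554 against 7130.5 UMIs in control, 6537 against 5716 in the mutant), which raises any such share.

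The endothelial genes Kdr, which encodes VEGFR2, and Plvap, a diaphragm protein of fenestrated endothelium, were counted in fibroblasts too, Kdr at 47.6 and 39.2 CPM and Plvap at 55.7 and 32.5 CPM. In control, Kdr was found in 30.4% (22.2 to 39.7%) of fibroblasts with Tek and 20.1% (15.9 to 25.0%) of those without, and Plvap in 36.5% (27.7 to 46.0%) and 24.8% (20.2 to 30.0%). In the mutant library the point values ran the other way. Kdr was found in 11.8% (7.45 to 17.5%) and 15.8% (13.3 to 18.6%), and Plvap in 7.30% (3.95 to 12.2%) and 15.3% (12.9 to 18.02%). The Kdr intervals overlapped in both libraries, so these counts do not settle its order. Plvap was less frequent in fibroblasts with Tek in the mutant library, with intervals that were apart, while its control intervals overlapped. The cells with Tek were the deeper ones in both libraries, which raises their shares.

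**Figure D4:**
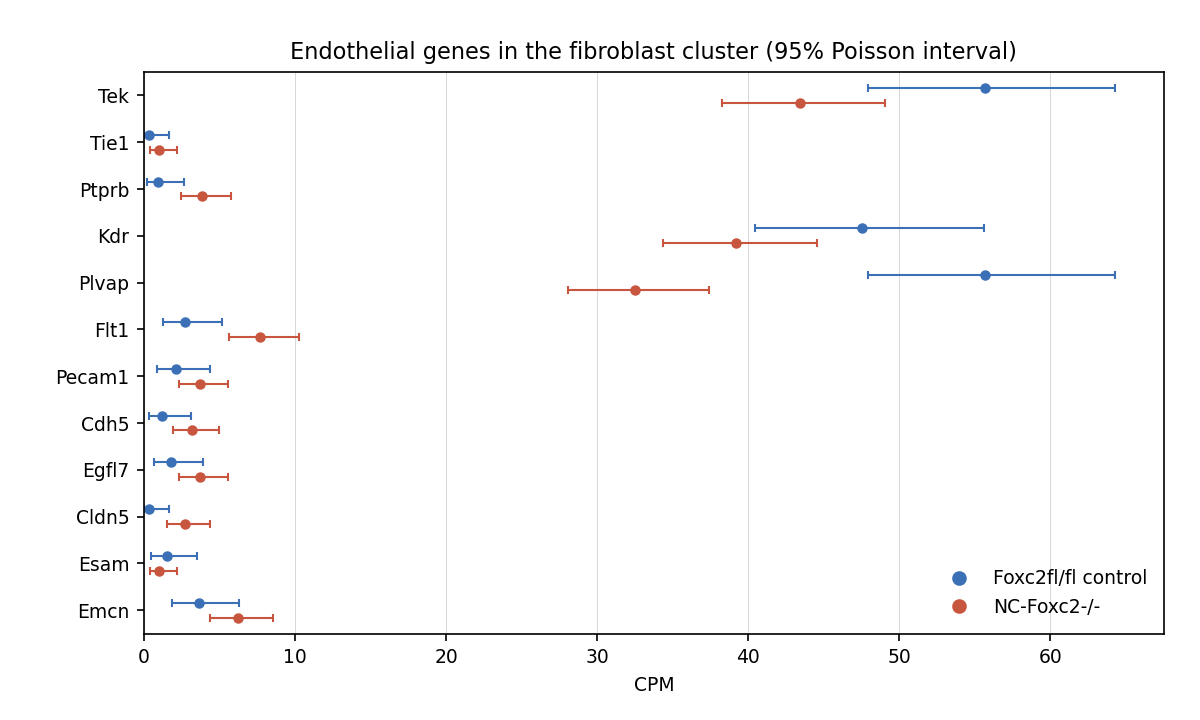
Tek beside other endothelial genes (CPM, linear axis) in the fibroblasts, 1 point per library with exact 95% counting intervals. In fibroblasts Tek, Kdr and Plvap lie between 32.5 and 55.7 CPM, whereas Tie1, Ptprb, Pecam1 and Cdh5 lie at or under 3.86 CPM.

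Tie1, the coreceptor gene, kept closer to endothelium than Tek. Endothelial cells held 83.6% of its 1003 UMIs in control and 82.8% of its 715 UMIs in NC-Foxc2-/-, at 378 CPM (353 to 404) and 343 CPM (316 to 372), a ratio of 0.908 (0.816 to 1.01) that was 1.04 at the control mix of clusters. The levels differed among the clusters. BEC-5 had 518 and 473 CPM, BEC-3 443 and 491 CPM, BEC-2 369 and 397 CPM and the SC and lymphatic ECs 350.5 CPM (312 to 393) and 387 CPM (303 to 488), and over both libraries no neighbours in this order were apart. BEC-4 had 281 and 223 CPM, BEC-6 208 and 297 CPM, and BEC-1 was lowest with 93.4 and 120 CPM. The NC-Foxc2-/- ECs had 38 UMIs or 291 CPM. In the SC and lymphatic ECs the ratio of the libraries was 1.11 (0.842 to 1.43), and with cells thinned to 2000 UMIs it was 1.69 (1.02 to 2.72). Outside endothelium Tie1 was highest in TM-2, at 12.4 and 17.2 CPM, and pericyte-like cells, at 12.4 and 8.29 CPM.

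Ptprb, which encodes the phosphatase that restrains TIE2, had 582 CPM in the endothelial cells of the control and 621 CPM in those of the mutant library, a ratio of 1.07 (0.982 to 1.16) that was 0.959 at the control mix of clusters, and these cells held 85.9% of its 1504 and 83.8% of its 1277 UMIs. BEC-5 was highest in control and over both libraries, at 1038 CPM in control and 783 CPM in the mutant, where 48 of 101 UMIs came from 1 of 14 cells. BEC-2, the highest in the mutant, had 770 and 817 CPM and BEC-4 688 and 748 CPM. In BEC-3 the level was 854 CPM in control and 594 CPM in the mutant, a ratio of 0.695 (0.571 to 0.846), and in BEC-1 336 CPM in 8 control cells and 625 CPM in 25 mutant cells, a ratio of 1.86 (1.12 to 3.27). BEC-6 had 355 and 435 CPM and the NC-Foxc2-/- ECs 467 CPM. Across BEC-1 to BEC-6 together the ratio was 0.840 (0.769 to 0.917), with 6.87% of genes called. Taken singly, BEC-1 to BEC-6 had 2, 3, 4, 3, 4 and 2 members with enough UMIs in that order, of which 0 were called. The shares of all genes called there were 13.0%, 11.3%, 12.5%, 13.3%, 8.78% and 8.98%. With so few members, 0 calls does not set them apart from these shares.

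The SC and lymphatic ECs had the lowest Ptprb level of the endothelial clusters, with 195 UMIs or 232 CPM (200 to 267) in control and 68 UMIs or 366 CPM (284 to 464) in the mutant library, a ratio of 1.58 (1.18 to 2.09). With cells thinned to 2000 UMIs the ratio was 2.32 (1.30 to 4.04), which would be a call. As Ptprb UMIs per Tek UMI, control cells of this cluster had 1.37 (1.10 to 1.72) and mutant cells 1.26 (0.868 to 1.83), against 4.11 (3.59 to 4.71) and 3.86 (3.35 to 4.46) in BEC-1 to BEC-6. The NC-Foxc2-/- ECs had 12.2 (4.95 to 38.9), with 5 Tek UMIs behind it. The low ratio of the canal cluster was present in both libraries, with intervals that overlapped between them. Tie1 UMIs per Tek UMI were 2.08 in control and 1.33 in the mutant SC and lymphatic ECs, and 2.05 and 1.95 in all endothelial cells.

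**Figure D5:**
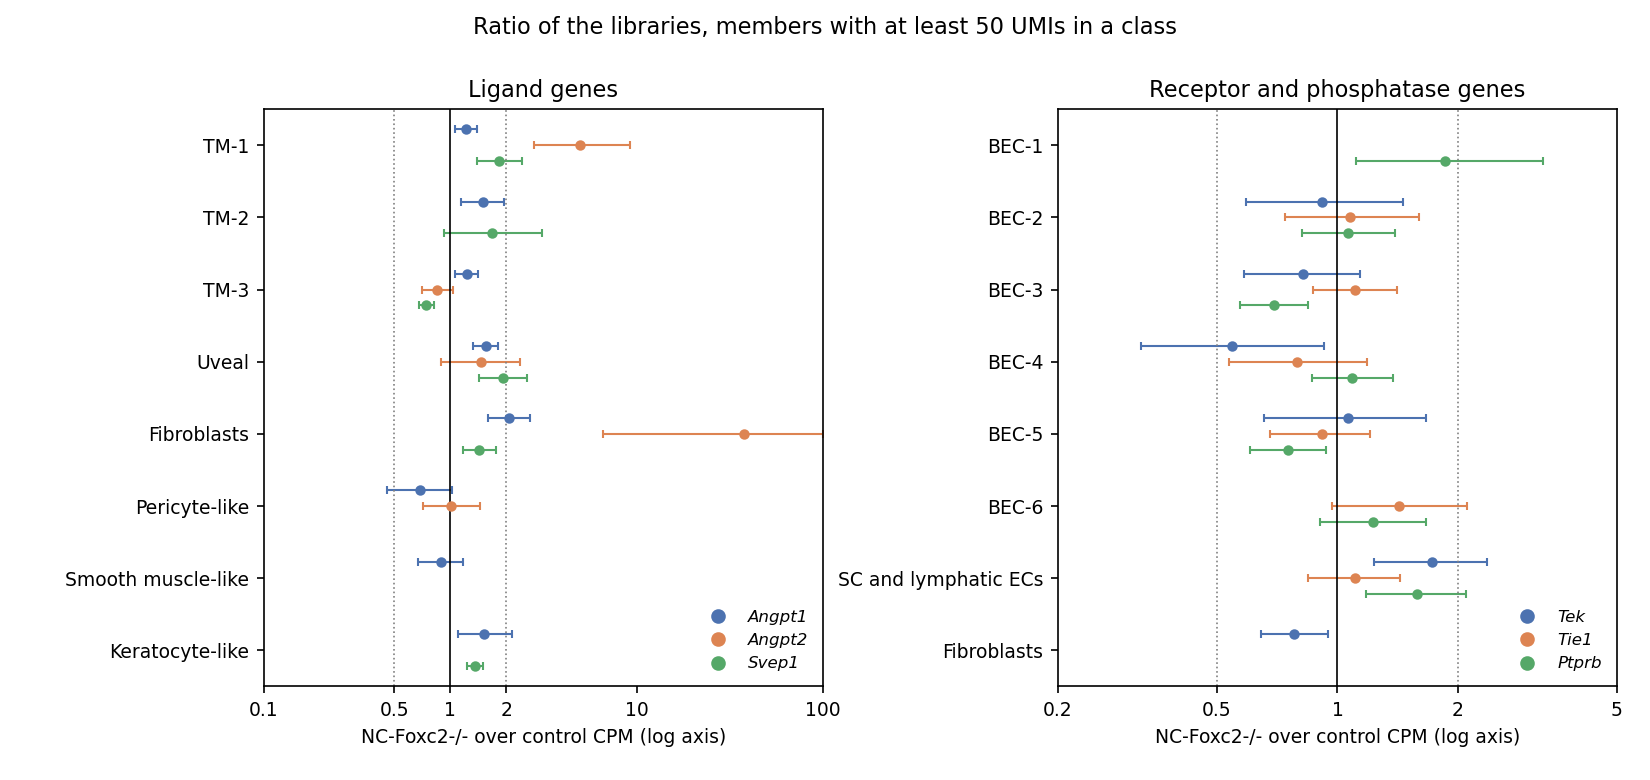
Ratio of NC-Foxc2-/- over control CPM (log axis) for members with at least 50 UMIs in the classes shown, with exact 95% counting intervals and dotted lines at 0.5 and 2. Angpt2 in TM-1 (4.95) and fibroblasts (37.9, its upper limit of 1517 cut at the edge of the axis) and Angpt1 in fibroblasts (2.06) lie past 2, and no receptor or phosphatase ratio does; the called Angpt2 ratio of 0.459 in the SC and lymphatic ECs, which rests on 4 control cells with a Lyve1 UMI, is not drawn.

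Of the other genes of the pathway, 10 encode further angiopoietin ligands or partners of TIE1 and TIE2 at the membrane, such as integrins, Cdh5 and Pecam1. Of all genes with enough UMIs in the endothelial cells, 7.12% were called in either direction. Of these 10 pathway genes 7 had at least 50 UMIs there, and 0 were called higher and 0 lower, with a median ratio of 1.10 against 0.947 over all genes. Their ratios ran from 0.863 for Itgav, an integrin subunit, to 1.32 for Pecam1, an adhesion gene of endothelial junctions, at 607 and 802 CPM. A list of 18 TIE2 adaptors and downstream genes had 14 with enough UMIs, of which 0 were called higher and 0 lower, with a median ratio of 1.08. Klf2, a flow-induced transcription factor gene and the lowest of that list, was at 808 CPM in control and 407 CPM in the mutant endothelial cells, a ratio of 0.504 (0.461 to 0.5503) that lay just short of a call. Within parts of the endothelium the lowest ratio of that list was less far from 1, at 0.723 in BEC-1 to BEC-6 and 0.542 in SC and lymphatic ECs. The mix of endothelial clusters differed between the libraries, and its part in the Klf2 ratio was not tested. The highest of that list in all endothelial cells was Pik3ca, the catalytic subunit gene of PI3 kinase, with a ratio of 1.37 (0.996 to 1.88).

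The third list held 10 genes for proteases reported or proposed to shed TIE2 or TIE1 and for their inhibitors. In TM-3 all 10 had enough UMIs, 2 were called higher and 0 lower, against 5.93% of all genes called in either direction. Their median ratio was 1.54 against 1.04 over all genes. Mmp2, a gelatinase gene, rose in TM-3 from 168 to 419 CPM, a ratio of 2.49 (2.32 to 2.67). Mmp9, the other TM-3 call, had 55 UMIs in the mutant library, of which 50 came from 1 cell. In fibroblasts 1 of 9 was called higher and 0 lower, against 10.9% of all genes called in either direction and 4.84% called higher. The called gene was Timp3, a metalloproteinase inhibitor gene, at 278 and 564 CPM, a ratio of 2.03 (1.88 to 2.18). Mmp3, a stromelysin gene, was called lower in TM-1 (190 and 55.4 CPM), TM-2 (70.2 and 4.30 CPM) and Uveal cells (32.4 and 6.08 CPM), with 1 of 9, 1 of 6 and 1 of 9 genes of the list called lower there and 0 higher. Its control UMIs were concentrated in few cells, however, with 702 UMIs in 24 of 609 TM-1 cells, 58 of 68 TM-2 UMIs in 1 cell and 83 of 192 Uveal UMIs in 1 cell. The share of all genes called in either direction was 3.94% in TM-1, 4.65% in TM-2 and 3.54% in Uveal cells. In other classes Mmp3 was called higher: 39.3 and 125 CPM in smooth muscle-like cells, 2.47 and 21.6 CPM in pericyte-like cells, and 2.90 and 56.8 CPM in BEC-1 to BEC-6. These counts too were concentrated, with 142 of 280, 28 of 52 and 70 of 80 mutant UMIs in 1 cell. Of all genes, 3.69% were called in smooth muscle-like cells, 9.64% in pericyte-like cells and 6.87% in BEC-1 to BEC-6. Each of these classes had 2 genes of the list called higher and 0 lower, of 9, 8 and 9 with enough UMIs. The second was Mmp2 in smooth muscle-like (67.2 and 141 CPM) and pericyte-like cells (8.66 and 64.7 CPM), and Timp1, a metalloproteinase inhibitor gene, in BEC-1 to BEC-6 (21.05 and 61.8 CPM).

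To place each member among all genes, its profile over 18 cell classes in each library, 36 profiles of log2(CPM + 1), was compared with those of 13622 genes. The values are given as a description, since profiles share libraries and depth. Angpt1 was most like Pcdh18 (Pearson r = 0.952), Cacng7 (0.941) and Gpc6 (0.940), and Svep1 most like Igdcc4 (0.911), Serpinf1 (0.902) and Cpxm1 (0.897). Angpt2 had less close neighbours among these classes, namely Emcn (0.823), Tspan12 (0.806) and Chst15 (0.801). Ptprb was most like the endothelial genes Mmrn2 (0.972), Ushbp1 (0.971) and Robo4 (0.970), and Tie1 most like Adgrf5 (0.9504), Cyyr1 (0.928) and Ptprb (0.921). For Tek the closest were Unc45b (0.928), Ackr2 (0.915) and Plvap (0.912), ahead of Ptprb (0.852) and Tie1 (0.787).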

How the data were processed

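Cells were captured with 10x Genomics 3' chemistry from 1 pooled library per genotype. Per the labels, the authors aligned reads to mm10 with Cell Ranger 4.0.0 and deposited whole-number UMI counts per gene and cell, with no normalization; these counts are used here as they stand. Because 3' ends are counted, values do not grow with transcript length, but capture may differ between genes. PCR duplicates are removed by the UMIs, and intervals cover counting error only.

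Of 11285 control and 11656 NC-Foxc2-/- barcodes, those of at most 8% mitochondrial UMIs were kept. The study's cluster names came from matching its per-cell source values (Tek and Ptprb left out) to the counts, at a tolerance of 0.55 of the last printed digit, since exact rounding at 0.5 lost cells. These clusters were made from expression, members included, so levels by class are descriptions. Other cells were clustered with scanpy 1.11.5 and leidenalg 0.10.2 (15 components, 25 neighbors, resolution 0.8, seed 1) and named from marker lists; 4 clusters stayed unnamed. Doublets called by Scrublet, 3.92% and 4.68% of cells, were kept and left out as an alternative. The study's own removal of doublet clusters was not repeated.

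UMIs were summed per class and library. Intervals of CPM are exact Poisson, of shares exact binomial (Clopper-Pearson) and of ratios exact conditional binomial, computed with scipy 1.17.1 under Python 3.11.15; other tools were numpy 2.4.6, pandas 2.3.3 and matplotlib 3.10.9. The scripts were tested on simulated data. A limit for a count of 0 is 3 counts. Cells were also thinned to 2000 UMIs, shallower cells being left out. For likeness, genes with at least 200 UMIs and classes with at least 20 cells in each library were used, mitochondrial genes excluded. The genes named are the 6 members in every class, and from 3 lists those past the fold rule, or the highest and lowest where none was, in endothelial cells for the first 2 lists and in meshwork clusters and fibroblasts for the third. The members and lists were chosen with earlier results of these data known.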

Additional observations from a re-analysis of the deposited data

Results flagged for a closer look

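A member moved in opposite directions between the libraries in a pair of classes in 4 cases, and in none was the difference between the classes tested, since each condition is 1 library. The Angpt2 ratio of NC-Foxc2-/- over control was 37.9 in fibroblasts and 0.459 in SC and lymphatic ECs. The first rests on 1 control UMI, and the second on 4 control cells with a Lyve1 UMI, without which it was 1.99. The Tek ratio was 1.72 in SC and lymphatic ECs and 0.546 in BEC-4, which had 15 control cells, with 15 of the 33 control UMIs in 1 of them. The Ptprb ratio was 1.86 in BEC-1, which had 8 control cells, and 0.695 in BEC-3. The Svep1 ratio was 1.91 in Uveal cells, or 1.23 with cells thinned to 2000 UMIs, and 0.744 in TM-3, where the mix of rebuilt clusters differed between the libraries.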

How the results depend on the processing

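No paired analysis was possible because each genotype has 1 library, and for the same reason no replicate could be left out. Over 44 results and 15 settings there were 333 alternative values, of which 304 stayed within the main value's counting interval, 27 moved outside it and 2 reversed a called direction. Both reversals were the Angpt2 ratio in SC and lymphatic ECs, 0.459 in the main analysis, which was 2.34 with cells thinned to 2000 UMIs and 1.99 without cells holding a Lyve1 UMI, an alternative chosen after seeing the data. The mean of per-cell CPM gave 0.947 for it. Without the Lyve1 cells the Angpt2 ratio of all endothelial cells was 1.79. Thinned, the SC and lymphatic EC ratios were 0.901 for Tek, 1.69 for Tie1 and 2.32 for Ptprb, which would be a call, the meshwork ratios 1.16 for Angpt1 and 1.25 for Svep1, the Uveal Svep1 ratio 1.23 and the fibroblast ratios 1.58 for Angpt1, which ends its call, and 7.99 for Angpt2, with 1 and 17 UMIs left, too few for a call. With both libraries weighted to the control mix of the study's clusters, the endothelial ratios were 1.19 for Tek, 1.04 for Tie1 and 0.959 for Ptprb, and the meshwork Svep1 ratio was 0.929, so the sign of these small differences depends on the mix. The mean of per-cell CPM gave 1.22 for meshwork Svep1. Names joined at 0.5 of the last digit gave 0.633 for fibroblast Tek, 7.53 for TM-1 Angpt2 and 1.84 for fibroblast Angpt1, which ends its call, as does the mean of per-cell CPM at 1.98. Averaging the libraries gave levels of 910.1 CPM for Ptprb in BEC-5 and 391 CPM for Svep1 in corneal endothelial-like cells. Svep1, called in no class in the main analysis, passed 2 times in Uveal cells without called doublets (2.04) and with the 5% mitochondrial filter (2.03), in TM-1 when thinned (2.23) and in TM-2 as a mean of per-cell CPM (2.31). The rebuilt clusters left 1 and 47 Angpt2 UMIs in fibroblasts and thinning 7 and 19 in TM-1, too few for a call. The causes were not tested. At resolution 1.2 no cluster was named keratocyte-like, so that setting gave no value for them. The canal cluster rests on 23 mutant cells.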
